A study of Mus musculus with 4 samples.

Results

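Enhanced reduced representation bisulfite sequencing (ERRBS) reads methylation at single cytosines in CpG-rich DNA, and it was used here on the livers of 4 male mice aged 6 to 8 weeks on a normal diet. Mixed-1 and Mixed-2 had an undefined background that includes C57BL/6J and other strains, and B6-1 and B6-2 were C57BL/6, with 1 liver and 1 library for each mouse. The animals of each background were kept at a different institution, and the Mixed libraries were also the shallower pair, so background, housing and depth cannot be told apart. Whether the libraries of the 2 backgrounds were prepared together is not stated. The cytosines described are those that were more methylated in both Mixed mice: autosomal, present in all 4 mice with a coverage of 15 or more, and with a methylation level in the lower Mixed mouse at least 15 percentage points above that in the higher B6 mouse. This gap between the closest values of the strains is called the margin. It was met by 2297 cytosines, 0.201% of the 1141713 that could be compared (the eligible cytosines) and a small part of the 1276684 cytosines common to all mice. The members fell on 2290 CpGs, of which 7 had both strands among the members. Members were chosen by the percent of C reads in the 4 mice, so their levels and margins are given as a description without a test. Lists of 4 levels give the Mixed mice first and then the B6 mice, each pair in the order of the mouse numbers.

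DNA methylation at a CpG is normally copied onto both strands after replication, so the cytosines of a CpG usually carry the same mark. In mammalian tissues most CpGs in gene bodies and between genes are methylated, while CpG islands at active promoters are kept free of it, and imprinted control regions are methylated on the copy from 1 parent only. Methylation at single CpGs can also follow the DNA sequence nearby, and a CpG that is lost by a base change can no longer be methylated. In ERRBS the enzyme MspI cuts the DNA at CCGG, and the study describes the method as using TaqαI as well. A read that starts at an MspI cut places each cytosine at a position equal to its distance from the cut, and distances below are from the nearest CCGG upstream in the direction of the read. All but 561 of the eligible cytosines lay within 50 bases of one, and those farther away were given no read position.

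The sequences below show 9 of the 10 members with the largest margins, 1 for each cluster, from the GRCm38.p6 reference of RefSeq on the strand that was read, with the member CpG in capitals. In the first set the member lies 29 bases from the cut, and the CCGG where the read begins is also in capitals. Ptk7 encodes a receptor kinase without catalytic activity that acts in planar cell polarity, and Nav1 encodes a protein that guides the growth of neurons.
Ptk7, promoter, chr17:46629220-46629251, minus strand: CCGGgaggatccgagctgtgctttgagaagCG
Gm33746, promoter, chr8:69882989-69883020, plus strand: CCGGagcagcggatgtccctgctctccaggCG
Nav1, promoter, chr1:135584793-135584824, plus strand: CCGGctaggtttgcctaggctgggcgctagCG
Fbrsl1, exon, chr5:110431850-110431881, minus strand: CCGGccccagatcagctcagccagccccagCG
In the second set the member lies at another distance, and only its CpG is in capitals. Ifngas1 is a long noncoding RNA gene next to the interferon gamma gene, Col23a1 encodes a membrane collagen, Elk3 an ETS family transcription factor, and Vmn1r236 a vomeronasal receptor.
Ifngas1, intergenic, chr10:118500906-118500947, plus strand: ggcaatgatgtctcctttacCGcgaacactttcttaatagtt
Col23a1, intron, chr11:51336717-51336758, plus strand: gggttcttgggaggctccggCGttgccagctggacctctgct
Elk3, intron, chr10:93301973-93302014, minus strand: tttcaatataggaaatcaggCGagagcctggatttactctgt
Gm24388, intergenic, chr14:40635050-40635091, minus strand: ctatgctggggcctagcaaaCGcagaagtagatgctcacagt
Vmn1r236, intergenic, chr17:21299669-21299710, plus strand: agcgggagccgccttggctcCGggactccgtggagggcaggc
The member at Niban3, also among the 10, is described with its cluster and not shown. The Gm24388 member lies 3874 bases from a CCGG. For intergenic cytosines the gene named is the one with the nearest transcription start.

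The number of members was set against the other ways of placing a pair of mice above the other pair. The mirror set, in which both B6 mice exceeded both Mixed mice by the same margin, held 1654 cytosines, 0.145% of the eligible ones. The 4 orderings that pair a Mixed with a B6 mouse held 963, 1291, 1005 and 1199 cytosines, or 0.0843%, 0.113%, 0.088% and 0.105%. The members thus outnumbered the largest of these by 1.78 times and the mirror set by 1.39 times. Both same-strain orderings exceeded every strain-mixing one, and the excess was larger on the side of the Mixed mice. No p-value goes with these counts, since 4 mice allow only 3 splits into pairs.

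At a margin of 10 points the members numbered 7325, against 5226 in the mirror set and 3984 to 5254 in the strain-mixing orderings, so the orderings lay closer together. At 25 points there were 304 members and 278 mirror cytosines, and the strain-mixing orderings fell to between 35 and 79. At 50 points 26 members and 59 mirror cytosines were left, and the strain-mixing orderings held 0 of the 1141713 eligible cytosines. Most members were close to the limit, with 1501 (65.3%) at a margin from 15 to under 20 points. A total of 464 members lay within 1 point above the limit, and 577 cytosines that were not members lay within 1 point below it. Just inside, with a margin of 15 points, was a cytosine at Mex3d, at 65% and 66.7% methylation in the Mixed mice and 44.6% and 50% in the B6 mice. Other cytosines at this margin included those at Npc1l1, which encodes the intestinal cholesterol transporter, and P2rx5, a purinergic receptor gene. Just outside were cytosines at Fbxo21, Gm35967 and Chd3, the first at 66.7% and 48.7% against 31.3% and 33.7%.

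**Figure D1:**
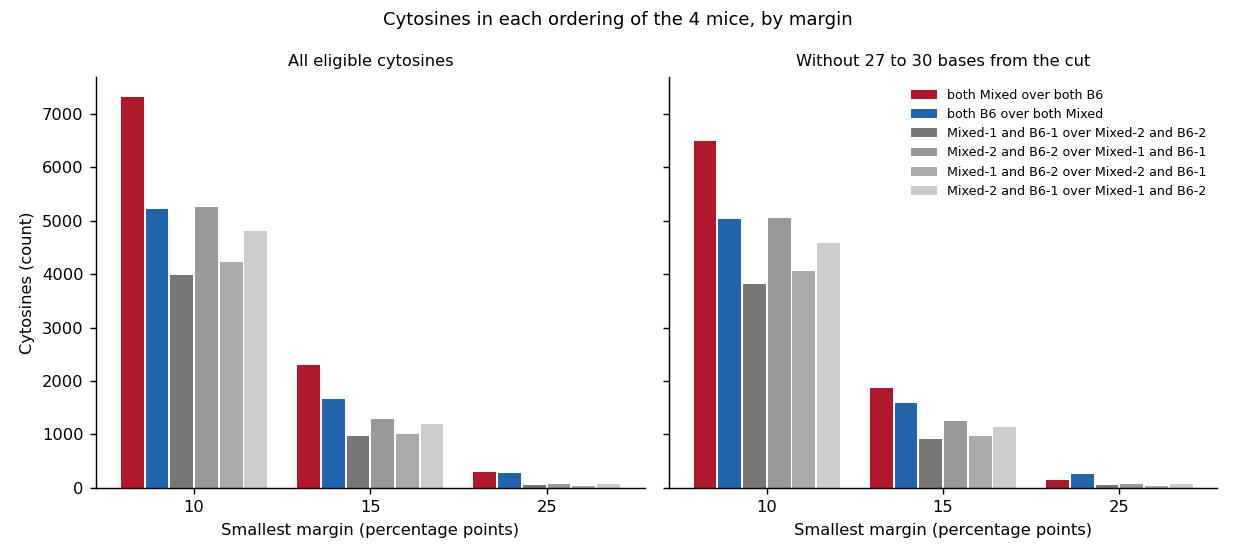
Number of eligible cytosines (y axis) whose margin was at least 10, 15 or 25 percentage points (x axis) in each of the 6 orderings of the 4 mice; the left panel holds all eligible cytosines and the right panel those that do not lie 27 to 30 bases from the MspI cut. At 25 points both same-strain orderings stand well above the others on the left (304 and 278 against 35 to 79), while on the right the members drop to 142 and the mirror set to 264.

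The members were mostly of intermediate methylation in the B6 mice. Their median level was 77.6% and 77.8% in the Mixed mice, and 50.6% and 51.4% in the B6 mice. By strain means, 998 members (43.4%) were between 20% and 80% in the B6 mice and over 80% in the Mixed mice, 965 (42.0%) were between 20% and 80% in both, and 293 (12.8%) were under 20% in the B6 mice and in that range in the Mixed mice. A B6 mean under 20% with a Mixed mean over 80% was found at 5 members. By the rule, no cytosine with a B6 level over 85% could be a member.

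Coverage behind these levels was low. The median coverage of the members was 30 and 33 reads in the Mixed mice and 54 and 52 in the B6 mice, against 44, 48, 68 and 63 at all eligible cytosines. At 60.1% of the members, and 31.4% of the eligible cytosines, the lowest coverage among the mice was under 30. Whole libraries ranged from a mean coverage of 44.2 to 63.7, and the labelled tissue was checked at 30 liver genes, whose 184 promoter cytosines were at 4.05% to 4.85% in the 4 mice, and at 10 leukocyte genes, whose 12 cytosines were at 73.9% to 78.2%, and at 6 muscle and brain genes, whose cytosines were at 15.8% to 16.8%. These lists were chosen with earlier results of these data in view.

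The distance from the MspI cut set many members apart. A total of 432 members, 18.8% of all, lay 27 to 30 bases downstream of the cut at which their read began, where 5.45% of the eligible cytosines lie. In this window 0.695% of the eligible cytosines were members, against 0.119% in the mirror set and 0.0676% to 0.0869% in the strain-mixing orderings. The peak was at 29 bases, the base 30 of the read, with 213 members among 12957 eligible cytosines or 1.64%. At 26 bases the share was 0.127% and at 31 bases 0.118%. This window was chosen after the values had been seen.

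Coverage and reads of other bases, which the rule did not compare, also changed near this window in the Mixed libraries. At 29 bases the mean coverage was 44.5 and 48.2 in Mixed-1 and Mixed-2, below the 50.6 and 54.4 at 26 bases. In B6-1 and B6-2 it was 78.4 and 73.0 at 29 bases and 74.7 and 69.8 at 26 bases, so the dip was seen in the Mixed mice only. Reads with a base other than C or T made up 0.0402% and 0.0420% at 29 bases in the Mixed mice and 0.00788% and 0.0110% in the B6 mice. This was not particular to the window, since at 22 bases the shares were 0.0330% and 0.0418% against 0.00866% and 0.0129%, and at 50 bases they were 0.161%, 0.0714%, 0.0539% and 0.0622%. The strands of a CpG were compared next, which uses the same percent of C reads as the rule. Over the 6112 cytosines at 29 bases whose opposite strand was also eligible, Mixed-1 exceeded its own opposite strand by 1.204 percentage points on average and Mixed-2 by 1.24. For B6-1 and B6-2 these differences were -0.0396 and -0.00301. At 26 bases the differences of all mice lay between -0.0594 and 0.0401. These means include the members. With every CpG left out that had a member on either strand, 6033 cytosines remained at 29 bases, and the differences were 0.808 and 0.858 in the Mixed mice and 0.0121 and -0.00661 in the B6 mice. Leaving out the CpGs of all 6 orderings gave 0.795, 0.836, -0.00513 and -0.00791 over 6001. The average Mixed difference between the strands was thus smaller without the members but still present at the other cytosines. What made these reads differ was not tested.

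**Figure D2:**
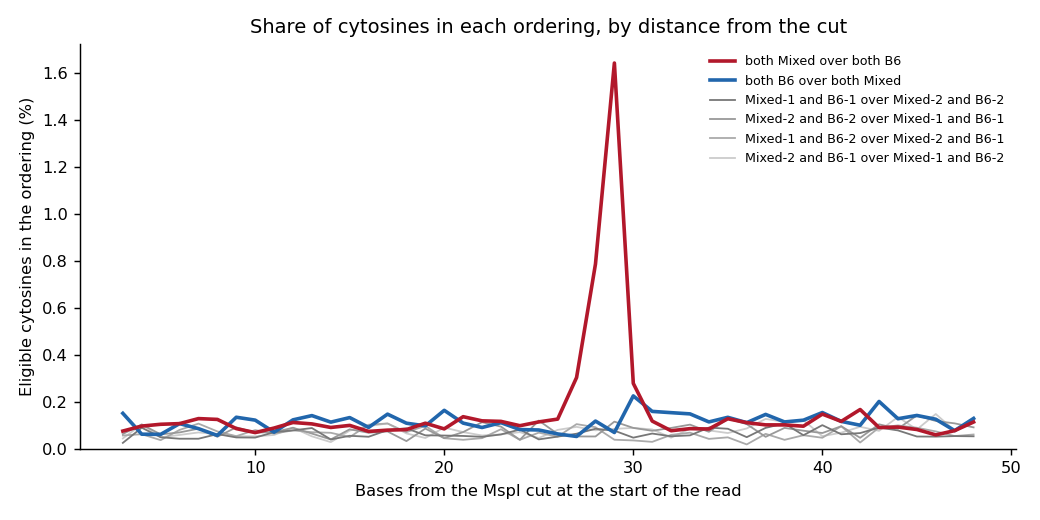
Percentage of eligible cytosines that belong to each ordering of the 4 mice (y axis) by their distance in bases from the MspI cut where the read starts (x axis, from 3 to 48; CCGG cytosines themselves are left out). The members in red reach 1.64% at 29 bases, and the other orderings stay at 0.116% or below at that distance.

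**Figure D3:**
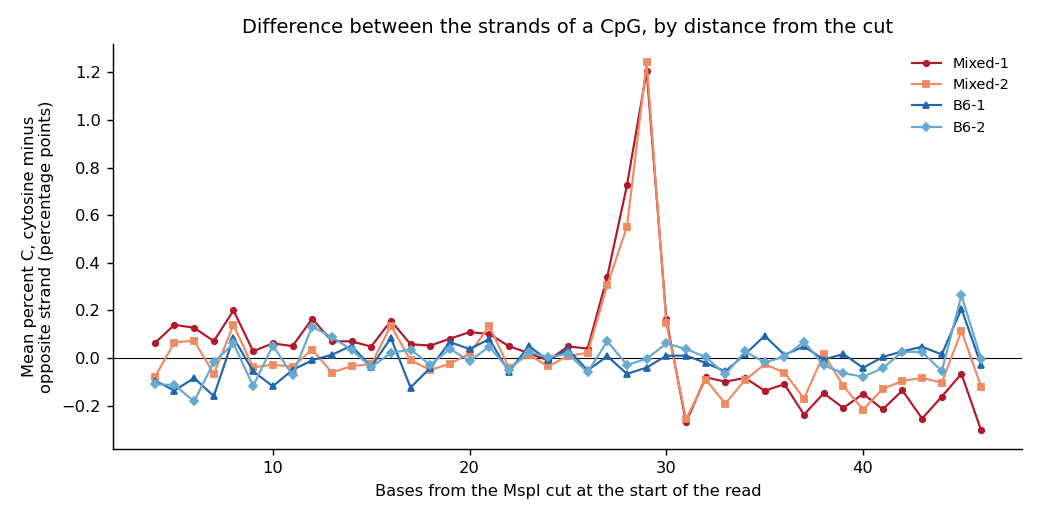
Mean percent of C reads at a cytosine minus that at the opposite strand of its CpG, in percentage points (y axis), by the distance in bases from the MspI cut (x axis), for each mouse, members included. Mixed-1 and Mixed-2 rise to 1.204 and 1.24 at 29 bases, and both B6 mice stay near 0 there.

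The share of this window grew with the margin. Of the 304 members with a margin of 25 points or more, 162 lay 27 to 30 bases from the cut, and so did 16 of the 26 with 50 points or more. Without the window, 1865 members were left against 1580 mirror cytosines and 921 to 1244 in the strain-mixing orderings, a ratio of 1.499 to the largest of these. Also without it, 142 members and 264 mirror cytosines had a margin of 25 or more, and 10 and 54 had 50 or more. The larger number of members than of mirror cytosines at 25 points therefore reversed when the window was left out.

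Members were also frequent at the CCGG site itself. It held 1121 of them, 0.313% of its eligible cytosines, against 0.203% in the mirror set and 0.130% to 0.183% in the strain-mixing orderings. The share of CCGG among members, 48.8%, was near the 49.5% among eligible cytosines that could have met the rule and had a B6 mean of 15% or more, which are called partly methylated below. At 3 to 26 bases 0.101% of the eligible cytosines were members and 0.105% were in the mirror set, while the strain-mixing orderings had 0.0588% to 0.0727%. At 31 to 50 bases the shares were 0.104%, 0.136% and 0.0593% to 0.0928%. Outside CCGG and the 27 to 30 base window, then, members were not more frequent than the mirror set.

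The largest margins were looked at one by one. At Ifngas1 the cytosine chr10:118500926 was 96.6% methylated in Mixed-1 and 89.7% in Mixed-2, and 0% in B6-1 and B6-2, with 26 to 29 reads in each mouse. For the B6 mice, 0 of 26 and 0 of 29 reads were C, which allows a level of up to 11.5% and 10.3%. The other eligible cytosines within 50 bp were at 84.6% to 96.5% in all 4 mice. The cytosine chr11:51336737 in an intron of Col23a1 had the same form, with 85% and 85.2% against 0% and 0%, on 29 to 63 reads, and neighbours at 88.3% to 97.7%. In an intron of Elk3, the cytosine chr10:93301994 was at 65% and 80.4% against 0% and 0%, on 51 to 87 reads, with neighbours between 55.2% and 66.7%. In these cases the B6 mice lacked C reads at a single CpG whose neighbours were methylated in the B6 mice too. For Col23a1 the 0 reads allow up to 10.3% and 4.76%, and for Elk3 up to 4.48% and 3.45%. The opposite strand of these 3 CpGs was not covered by 10 reads in any mouse. The reference sequence has a CpG at each of the 3, as shown above. Whether the genome of these mice, Mixed or B6, has a C there was not tested.

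At Gm24388, inside a soft-masked repeat, a cytosine was at 62.2% and 59.1% against 0% and 0%, on 22 to 53 reads and with no other eligible cytosine within 50 bp. At Vmn1r236, also in a repeat, a CCGG cytosine was at 64.4% and 65.8% in the Mixed mice and 5.71% and 0% in the B6 mice. The other strand of this CpG was methylated in all 4 mice, at 92.3%, 90.5%, 95.2% and 93.0%, so the strands of the same CpG gave different pictures. A cytosine near Gm33780 on chromosome 2 had the same form, with 73.9% and 68.9% against 2.41% and 17.5% on its own strand and 91.9% to 96.0% on the other. Its coverage was 318, 74, 83 and 154 reads, and 531, 313, 4598 and 2524 on the other strand. Whether reads of several copies were counted there was not tested.

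The 5 members at 29 bases among the 10 largest margins were at Ptk7, Gm33746, Niban3, Nav1 and Fbrsl1. The Ptk7 cytosine chr17:46629221 was 100% methylated in both Mixed mice, on 17 and 15 reads, and 9.68% and 18.4% in B6-1 and B6-2. On the opposite strand the same CpG was at 26.8% and 58.3% in the Mixed mice and 18.4% and 11.1% in the B6 mice, so the order held but the gap was smaller. The Nav1 cytosine chr1:135584823 was at 80% and 85% against 12.96% and 20%, with the opposite strand at 41.5% and 31.5% against 27.5% and 19.8%. The Niban3 cytosine chr8:71602483 was at 74.1% and 68.4% against 2.08% and 3.57%, and its opposite strand at 24.7% and 15.9% against 5.62% and 6.41%. At Gm33746 and Fbrsl1 the opposite strand was not covered by 10 reads, and the levels were 100% and 100% against 20% and 25.5%, and 95.5% and 96.97% against 38.9% and 30.2%. For each of these 5, the Mixed coverage was 15 to 33 reads and the B6 coverage 31 to 105.

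**Figure D4:**
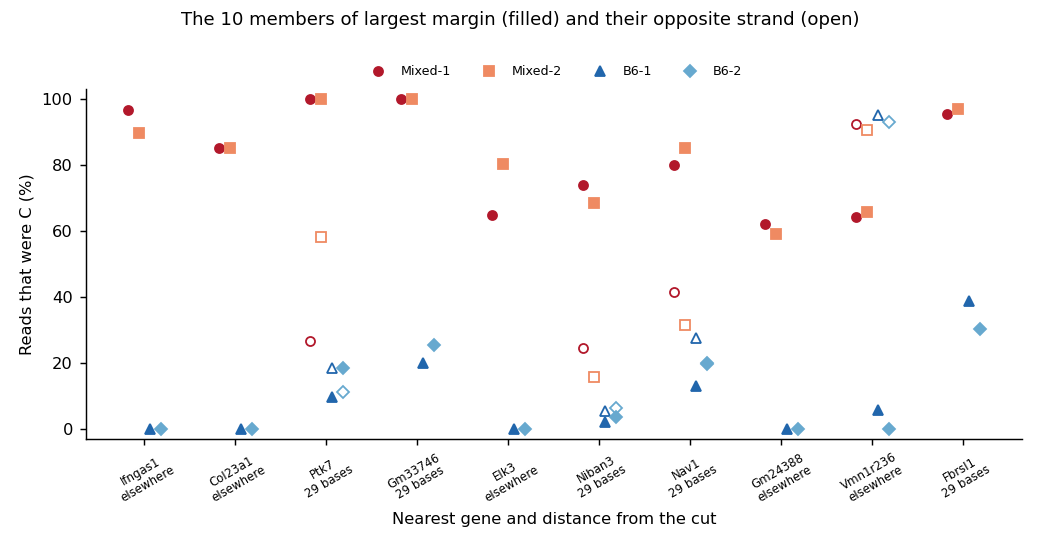
Percent of reads that were C (y axis) in each mouse at the 10 members of largest margin, 1 for each cluster (x axis, with the nearest gene and whether the cytosine lies 29 bases from the cut). Filled symbols are the member and open symbols the opposite strand of its CpG where it was eligible; at Vmn1r236 all 4 open symbols lie above 90%, and at Niban3 and Nav1 the open Mixed symbols lie far below the filled ones.

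For the opposite strand of all members the rule used no value, unless that strand was a member itself (14 cases, kept in the values below). It was eligible for 565 members and held the same order, both Mixed above both B6 by any amount, for 132 of them, 23.4% (95% Wilson interval 20.1% to 27.02%, which covers counting error only). The background was 6.38% for all eligible cytosines with an eligible opposite strand, most of which are near 0%, and 18.2% for the partly methylated ones. The opposite strands were at 53.7%, 53.1%, 49.6% and 49.8% on average, and the members themselves at 71.2%, 71.2%, 43.6% and 44.5%. The strain means of the opposite strands, 53.4% ± 0.452 (SD, n = 2) and 49.7% ± 0.127, differed by 3.66 percentage points, more than the spread within a strain. The rule set the order at the 14 that were members, so it made part of this share and of this difference. No value without these 14 was computed. An exact two-sided permutation test over the mice gave p = 0.333, the smallest that 2 mice against 2 allow. The opposite strands of members at 27 to 30 bases differed by 3.86 points and those of other members by 3.58 points, so a smaller difference in the same direction was present on both.

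Nearby CpGs gave a similar result. Of the members, 1799 had other eligible cytosines within 50 bp that were not members, and the means of these neighbours were 59.4% and 59.3% in the Mixed mice and 54.1% and 54.5% in the B6 mice. They differed by 5.04 points (exact permutation p = 0.333, the smallest possible). The Mixed mice were both higher at the neighbours of 752 members, 41.8%, compared with 14.6% of all eligible cytosines and 19.7% of the partly methylated ones. For members outside the 27 to 30 base window the neighbours differed by 5.59 points, and inside it by 3.28 points. Neighbours on the same strand can share reads with the member, so they are not an independent measure of the reads.

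The place of the members in the genome was largely that of partly methylated cytosines. Promoters, here 1000 bp on each side of a transcription start, held 386 members or 16.8%, exons held 393 (17.1%), introns 828 (36.0%) and intergenic DNA 690 (30.04%). Promoters held 61.1% of all eligible cytosines but 15.9% of the partly methylated ones, next to which the members' 16.8% (Wilson interval 15.3% to 18.4%) was not set apart. CpG islands held 306 members, 13.3% (11.99% to 14.8%), compared with 10.3% of the partly methylated and 59.8% of all eligible cytosines. Inside the 27 to 30 base window 29.2% of the members lay in islands and 26.6% in promoters, and outside it 9.65% and 14.5%. The island share outside the window was close to that of the partly methylated cytosines, and inside it well above. CCGG cytosines made up 0% of the members inside the window, 60.1% of those outside it and 49.5% of the partly methylated cytosines. Without CCGG cytosines 22.6% of all members lay in islands and 20.4% in promoters, so these shares compare unlike mixes of sites. Soft-masked repeats held 9.40% of the members and 8.25% of the partly methylated cytosines.

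By chromosome, the share of eligible cytosines that were members ranged from 0.142% on chromosome 6 to 0.305% on chromosome 17, with 0.261% on chromosome 11 and 0.259% on chromosome 8 next. Chromosome 17 also held the largest share of mirror cytosines, 0.389%, and was the only chromosome with more of them than of members (209 against 164). CpGs that were well covered in both B6 mice but absent from both Mixed files lay within 10000 bp of 55.4% of the members and 53.3% of the partly methylated cytosines. Mirror cytosines lay within this distance of 7.84% and 8.57%, so for these places the shares of members and partly methylated cytosines were close. CpGs well covered in both Mixed mice but absent from both B6 files lay this near 4.44% of the members and 1.98% of the partly methylated cytosines. For the 142 members outside the 27 to 30 base window with a margin of 25 points or more this share was 10.6%.

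Most members stood alone. Joined where at most 1000 bp apart, they formed 2003 clusters, of which 1815 were a single cytosine. Clusters with at least 2 CpGs numbered 185 and held 476 members, 20.7%. For the mirror set this share was 20.4%, and for the strain-mixing orderings 11.7% to 15.3%. Clusters of at least 3 CpGs numbered 49, compared with 32 in the mirror set and 9 to 13 in the strain-mixing orderings. In 21 of these 49 all members lay on 1 strand, and 28 had members on both. A strain-mixing ordering held the cluster with the most CpGs of all, 22, so size alone did not set the members apart.

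Clusters in which both strands were higher in the Mixed mice are described first. The strand differences given are means over all eligible cytosines of the span. They include the members, so the rule made part of these differences. The largest cluster, chr8:71602163-71602938 in a CpG island over an exon and an intron of Niban3, had 17 member CpGs at 54.93% and 35.5% in the Mixed mice and 10.5% and 11.9% in the B6 mice on average. Its other 39 eligible cytosines were at 30.1%, 15.7%, 7.96% and 7.59%, and 30 of them had both Mixed mice above both B6 mice, compared with 8.77% of all eligible cytosines and 24.8% of the partly methylated ones. The mean difference was 20.7 points over the plus strand and 20.9 over the minus strand. Mixed-1 was clearly above Mixed-2 at this island, so the Mixed mice also differed from each other.

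On the same chromosome, 6 member CpGs lay in an exon of Nr2f6, an orphan nuclear receptor gene, at chr8:71376127-71376183. They were at 74.6% and 55.4% in the Mixed mice, and 33.7% and 29.5% in the B6 mice, on 45 to 71 reads at the members, and both strands differed by 29.4 points. Of the 9 eligible cytosines of the span, 6 were members and so higher in the Mixed mice by the rule. The other 3 were at 52.1%, 34.4%, 25.2% and 18.6% on average, and at these 3 too both Mixed mice exceeded both B6 mice. The share with this order was 8.77% of all eligible cytosines and 24.8% of the partly methylated ones. The sequence of the span is shown with member CpGs in capitals.
Nr2f6, exon, chr8:71376117-71376193, plus strand: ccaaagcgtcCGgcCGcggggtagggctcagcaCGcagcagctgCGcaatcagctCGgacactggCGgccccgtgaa
The Ptk7 promoter island, chr17:46628847-46629221, held 6 member CpGs at 39.9%, 41.8%, 9.21% and 9.64%, and its other 16 eligible cytosines were at 12.7%, 23.3%, 7.21% and 7.04%. Of these 16, 12 had both Mixed mice on top, and the strands differed by 14.9 and 18.8 points.

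Near the start of Tjap1, which encodes a protein of tight junctions, 4 CpGs on chr17:46282967-46283010 held 6 members at 45.2% and 45.0% in the Mixed mice and 0% and 0.490% in the B6 mice, on 28 to 85 reads at the members. The strands differed by 35.5 and 42.3 points. The 7th eligible cytosine of the span, on the plus strand at 46283009, was at 0% in all 4 mice, while the other strand of its CpG was at 44.6% and 40.3% against 0% and 2.94%. The cluster at Gm24463, chr9:89066759-89066803, had 5 member CpGs at 88.4% and 86.3% against 54.7% and 58.1%, on 16 to 62 reads at the members, with differences of 15.8 points on the plus and 28.4 on the minus strand.
Gm24463, promoter, chr9:89066749-89066813, plus strand: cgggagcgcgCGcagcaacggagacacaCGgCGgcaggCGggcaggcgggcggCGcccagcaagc

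In other clusters the members lay on 1 strand, and the opposite strand showed a smaller difference, almost none, or one in the other direction. Here too the strand means include the members. As these lie on 1 strand only, the rule made part of the contrast between the strands. All 7 members in an exon of the T-box factor gene Tbx3, chr5:119680672-119680822, were on the plus strand. The 11 eligible plus-strand cytosines of this span, 7 of them members, were at 61.2%, 66.8%, 43.2% and 42.2%. The 7 on the minus strand, none a member, were at 61.0%, 51.8%, 59.7% and 63.5%. The plus strand was 21.3 points higher in the Mixed mice and the minus strand differed by -5.20 points. The sequence is shown for the place of the member CpGs among the others of this span.
Tbx3, exon, chr5:119680662-119680832, plus strand: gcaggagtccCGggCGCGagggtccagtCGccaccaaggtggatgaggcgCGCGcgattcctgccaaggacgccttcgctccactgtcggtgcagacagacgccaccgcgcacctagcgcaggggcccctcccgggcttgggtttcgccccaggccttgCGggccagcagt
At Adra1b, the gene of an alpha-1 adrenergic receptor, the 6 members of the exon cluster chr11:43776117-43776298 were all on the plus strand. They were at 84.4%, 66.6%, 43.7% and 38.2%, on 17 to 69 reads at the members. The difference over the span was 26.9 points on the plus and 3.37 on the minus strand. All members but the one at 43776117 lay within 48 bases of the same cut, on 17 to 22 reads in the Mixed mice. They can thus share reads and are not separate measures.

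The 10 member CpGs in the island of a Grb10 intron, chr11:12025803-12026440, were all on the minus strand, at 52.9% and 62.8% in the Mixed mice and 27.7% and 26.9% in the B6 mice. Grb10 is an imprinted gene whose product restrains growth signalling. Over the span the minus strand differed by 12.2 points and the plus strand by 0.0429. The 300 bases shown hold 9 of these CpGs, and the word CACGCGCC occurs in them 11 times on this strand, counting overlaps, so they are a row of similar units.
Grb10, intron, chr11:12026218-12026517, plus strand: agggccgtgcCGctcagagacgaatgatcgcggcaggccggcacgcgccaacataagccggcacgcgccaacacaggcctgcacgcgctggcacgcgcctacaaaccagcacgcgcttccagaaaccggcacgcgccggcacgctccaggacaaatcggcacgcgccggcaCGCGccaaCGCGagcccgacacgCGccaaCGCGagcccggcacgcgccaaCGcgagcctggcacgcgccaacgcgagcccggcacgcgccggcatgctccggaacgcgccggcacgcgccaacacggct
Near 1700109G15Rik, chr11:84683036-84683052, 5 members lay within 17 bp on the minus strand, at 36.3% and 33.8% against 12.5% and 10.4%, and the plus strand of the span was at 40.2%, 21.8%, 16.3% and 19.6%. The intergenic island near AY036118, chr17:39844415-39845994, held 10 member CpGs at 40.8%, 56.6%, 17.1% and 15.3%. Of the 254 other eligible cytosines, 187 had both Mixed mice above both B6 mice, and 3 belonged to the mirror set. The share with this order was 8.77% of all eligible cytosines and 24.8% of the partly methylated ones. Coverage at the members of this island ran from 19 to 12514 reads. At all eligible cytosines the median was 44, 48, 68 and 63 reads, so the upper end was far outside the usual range. AY036118 names the nearest transcription start only, which lies 53278 bp from the member of largest margin. Whether reads of several copies of this sequence were counted here was not tested.

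**Figure D5:**
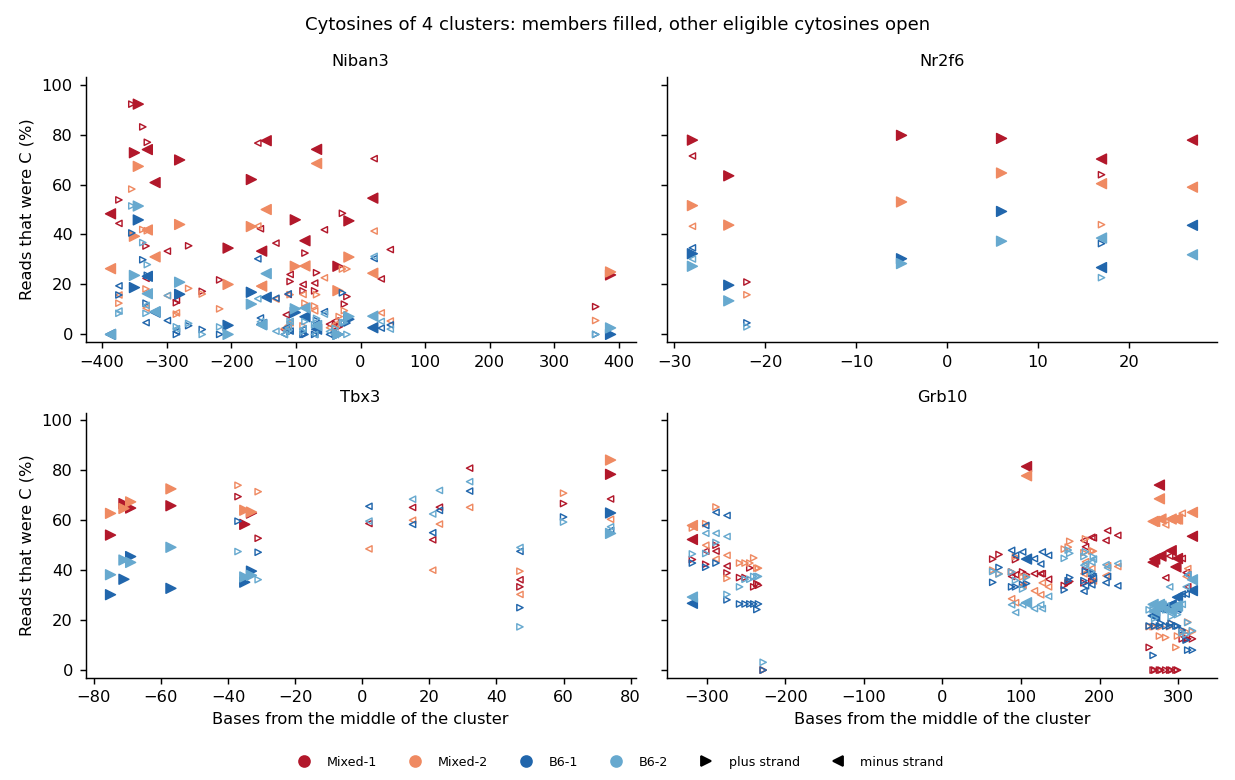
Percent of reads that were C (y axis) in each mouse at the eligible cytosines of 4 clusters, by distance in bases from the middle of the cluster (x axis); filled symbols are members, open ones are not, and the direction of the symbol gives the strand. At Niban3 and Nr2f6 both strands are higher in the Mixed mice, by 20.7 to 29.4 points with members included. At Tbx3 and Grb10 all filled symbols point to 1 strand.

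A total of 325 genes had a member CpG within 1000 bp of a transcription start, 54 had at least 2 and 21 at least 3. Ptk7 led with 6, followed by Gm24463 and Gnas with 5 each, and by Tjap1, Unkl, Fut11, Igf2r and Vmn2r29 with 4. Among those with 3, the largest median margins were at Hmga1b and Ngef. Ngef encodes an exchange factor of axon guidance. Its promoter mean without members was 23.3%, 14.8%, 13.3% and 13.1%, so Mixed-1 stood apart and Mixed-2 was near the B6 mice. At Unkl the other cytosines of the whole promoter were at 3.62%, 2.78%, 3.76% and 3.61%. Within the cluster itself the 3 eligible cytosines that were not members were at 33.3%, 23.8%, 14.1% and 15.1%, so the difference covered a short stretch of this promoter. At Fut11 the other promoter cytosines were at 49.0%, 46.4%, 42.1% and 48.2%, so Mixed-2 lay below B6-2, and 1 mirror cytosine was found there. At Vmn2r29, a vomeronasal receptor gene, they were at 37.7%, 32.8%, 26.6% and 29.6%. The promoters with the most member CpGs thus differed in how far the rest of the promoter was also higher in the Mixed mice.

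Over gene bodies, promoters and nearest genes, the members were assigned to 1822 genes, of which 1510 had 1 member CpG, 240 had 2 and 72 had 3 or more. Members at imprinted genes were the most frequent among the gene groups looked at. Imprinted genes with 5000 bp on each side held 4091 eligible cytosines, of which 35 were members, 0.856%, against 3 in the mirror set and 2 to 6 in the strain-mixing orderings. They lay at 14 of the 72 genes with eligible cytosines, in 15 clusters, and 12 of the 35 lay in the 27 to 30 base window, which leaves 23. Since imprinted genes hold many partly methylated cytosines, the share among those is the closer comparison, and it was 2.67% against 1.44% for all genes. With any margin, both Mixed mice were above both B6 mice at 271 of 1093 partly methylated cytosines of imprinted genes outside the window, 24.8%, against 24.4% of all such cytosines, so the shares were close.

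Of the imprinted genes, Grb10 had 11 members, Gnas, the gene of the stimulatory G protein alpha subunit, had 8, and the overlapping Igf2r and Airn shared 7. Igf2r encodes the receptor that clears insulin-like growth factor 2, and Airn is the antisense transcript that silences it on the paternal copy. The other partly methylated cytosines of these genes, outside the 27 to 30 base window and without those of any of the 6 orderings, were averaged as well. At Igf2r the means over 62 such cytosines were 40.8%, 40.7%, 32.7% and 36.8%, and at Gnas 46.7%, 47.2%, 41.9% and 44.9% over 198. At Grb10 they were 37.4%, 40.9%, 35.6% and 37.1% over 79, where Mixed-1 and B6-2 almost met. At Cdkn1c, a cell cycle inhibitor gene, they were 25.5%, 28.7%, 27.4% and 26.5% over 69, and the strains overlapped. The first 3 genes were those with the most members, and B6-1 lay lowest at each of them. The members with the largest margins at imprinted genes were at Peg10 (93.8% and 100% against 33.3% and 40.6%), Usp29 (94.1% and 100% against 45.8% and 49.4%), Grb10, Igf2r and Gnas, and all 5 lay in the 27 to 30 base window.

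Of the large gene groups, zinc finger genes held members at nearly the 0.201% of all eligible cytosines, and the others at lower shares. Zinc finger genes had 40 among 20053 (0.199%), solute carriers 31 among 20546 (0.151%), microRNA genes 32 among 20082 (0.159%) and homeobox genes 25 among 14737 (0.170%). Among partly methylated cytosines, where 1.44% were members over all genes, the order was different, with 2.11% at zinc finger genes, 1.87% at homeobox genes, 1.34% at microRNA genes and 1.22% at solute carriers. Their largest margins were at Zfp180, at Slc38a9, which shares the cytosine with Ddx4, at Mir6946 and at Dlx1as. The germline genes silenced by methylation had 3 members among 951 (0.315%), at Ddx4, an RNA helicase of germ cells, and at Tdrd1 and Tdrd9. The mirror set held 2 at this list and the strain-mixing orderings 0 to 4. Among its partly methylated cytosines the share of members was 1.27%, below the 1.44% over all genes. The Ddx4 cytosine was at 89.7% and 91.7% against 28.6% and 41.5%, and it lay 29 bases from the cut. Protocadherins had 3 members among 1637 (0.183%), olfactory receptors 1 among 823 (0.122%), and the major histocompatibility genes 1 among 1185 (0.0844%), near H2-T3.

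The lists of liver genes and of cytochrome P450 genes held members at shares above the 0.201% of all eligible cytosines, on few members. Of 574 eligible cytosines at the liver genes with 5000 bp on each side, 3 were members (0.523%) and 1 was in the mirror set. All 3 lay at Hnf4a, the gene of a central transcription factor of hepatocytes, and 2 of them were in its promoter. The promoter member of larger margin was at 43.5% and 40.7% against 21.4% and 23.8%, and an exon cytosine at 83.0% and 89.8% against 62.9% and 67.4%. The promoter cytosines that were not members were at 19.3%, 27.5%, 25.6% and 25.5%, so Mixed-1 lay below both B6 mice there. Cytochrome P450 genes had 6 members among 1491 (0.402%) and as many mirror cytosines, and the strain-mixing orderings held 1 to 8 there. Among partly methylated cytosines the share was 1.44% at the liver genes, near that over all genes, and 1.83% at the cytochrome P450 genes. The members included exon cytosines of Cyp8b1, the sterol 12-alpha-hydroxylase gene, at 67.2% and 75% against 45.5% and 46.6%, and of Cyp7a1, the gene of the rate-limiting enzyme of bile acid synthesis, at 95.7% and 75% against 54.0% and 60%, with a margin of exactly 15 points. The 3 Hnf4a members and those of Cyp8b1 and Cyp7a1 lay outside the 27 to 30 base window.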

How the data were processed

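The authors mapped 50-cycle single-end reads to mm10; the methods name BSMAP and the submitters' processing notes name Bismark and SAMtools. The deposited files give, for each mouse and strand, the coverage of each CpG cytosine as a count of reads (10 or more) and the percent of reads that were C or T. Coverage was not normalized, and non-CpG cytosines were not analysed here.

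Sites were joined by position and strand and placed on GRCm38.p6 with RefSeq annotation (promoter, then exon, intron, intergenic). CpG islands were called on repeat-masked sequence with 200 bp, 50% GC and an observed to expected ratio of 0.6. A partly methylated cytosine had a B6 mean of 15% or more and no B6 value over 85%. Distance from MspI was counted from CCGG in the direction of the read. Clusters joined members at most 1000 bp apart. The rule was tested on simulated data. The genes named were those of the 10 largest clusters, the 10 largest margins, the 10 promoters with the most member CpGs, up to 5 per gene list, and 3 at each side of the limit, besides others chosen after their values were seen (Gm33780, Cdkn1c). The members, lists and rules were chosen with earlier results of these data known. Exact permutation tests over mice were run on mean levels of opposite strands and of neighbours that were not members. Of the 565 opposite strands, 14 were members themselves and were kept. A coverage of 15 reads allows a share of up to 20% when 0 reads are C, and intervals cover counting error only, since amplified copies of a fragment are counted too. Labels number the mice in each strain; deviations of same-numbered mice had a correlation of -0.00101, so no pairing was assumed. Python 3.11.15, numpy 2.4.6, pandas 2.3.3, scipy 1.17.1 and matplotlib 3.10.9 were used.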

Additional observations from a re-analysis of the deposited data

How the results depend on the processing

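Under 20 alternatives, 90 values were recomputed. Of these, 42 stayed within 1.5 times the count or within the 95% Wilson interval of the share or ratio. The other 48 moved beyond it. The member count moved to 917 at a coverage of 30, to 7325 and 304 at margins of 10 and 25 points, and to 1176 without CCGG cytosines. The ratio to the strain-mixing orderings moved to 1.66 at a coverage of 10, to 1.39 and 3.85 at margins of 10 and 25, and to 1.499 without 27 to 30 bases. The promoter share of 16.8% moved to 25.7% at a margin of 25, to 7.44% for 1000 bp upstream only, to 23.2% for 2000 bp on each side, to 14.5% without 27 to 30 bases and to 20.4% without CCGG. The island share of 13.3% moved to 11.9% and 16.03% at coverages of 10 and 30, to 11.7% and 24.0% at margins of 10 and 25, to 11.02% with strands merged, to 9.65% without 27 to 30 bases and to 22.6% without CCGG. The opposite strand share of 23.4% moved to 31.3% at a coverage of 30 and to 29.5% at a margin of 25. The clustered share of 20.7% moved to 25.9% and 11.5% at margins of 10 and 25, to 15.98% with strands merged, to 16.2% and 25.9% with members joined over 100 and 10000 bp, and to 18.4% without 27 to 30 bases. The alternatives without 27 to 30 bases and without CCGG were chosen after seeing the data.

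With the replicate number as a block, where each Mixed mouse had to exceed the same-numbered B6 mouse, the members numbered 4144, the island share was 11.9% and the clustered share 22.7%; the ratio was 1.73 against orderings in which the pairs went opposite ways. Without 1 mouse the rule is looser by construction: the count ran from 10294 (without Mixed-1) to 13455 (without B6-2), the promoter share from 12.5% to 19.9%, the island share from 8.19% to 14.1%, the opposite strand share from 38.9% to 47.5% and the clustered share from 28.9% to 36.6%. The ratio has no value with 3 mice.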
